A study of Homo sapiens with 9 samples.

Results

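DNA methylation and heterochromatin keep many integrated transgenes quiet in mammalian cells, and 10 genes of that machinery were followed across HEK293T reporter lines. They are the DNA methyltransferases DNMT1, DNMT3A and DNMT3B, the hemimethylated DNA reader UHRF1, the corepressor TRIM28 (KAP1), the histone H3 lysine 9 methyltransferase SETDB1, the HUSH complex genes TASOR, MPHOSPH8 and PPHLN1, and the ATPase gene MORC2. The genes were chosen by symbol, for their known roles in silencing integrated transgenes, with earlier results of these data known. All 10 symbols matched 1 Ensembl ID each among 60683 gene IDs, and all 10 passed the filter on low counts in each comparison.

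HEK293T is an established human embryonic kidney line that expresses the SV40 large T antigen. Total RNA was sequenced after ribosomal RNA depletion from 3 groups with 3 libraries each. Parental cells had no reporter construct. Clone 15 (low reporter expression) and Clone 37 (high reporter expression) each descended from a single sorted cell after piggyBac transposition of ATG-(CAG)60-Myc-NLuc, a NanoLuc reporter behind 60 CAG units, and ATG-(CAG)0-Myc-FLuc, a firefly luciferase reporter with 0 CAG units. All 3 lines were grown in the same DMEM medium with serum and antibiotics. Each expression level was represented by 1 clone, so the level of the reporter and every other property of that clone cannot be told apart. Clone 15 was also the only line read at 100 bp, against 75 bp for Parental and Clone 37, so its longer reads and the clone itself cannot be told apart either. The labels do not say that the libraries of a group came from separate cultures, and p-values then measure only the spread between these libraries, which may be technical.

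As background, DNMT3A and DNMT3B set new methyl groups on CpG sites. UHRF1 binds hemimethylated DNA after replication and brings DNMT1, which copies the pattern to the new strand. TRIM28 is brought to DNA by KRAB zinc finger proteins and recruits SETDB1, which trimethylates lysine 9 of histone H3. The HUSH complex, made of TASOR, MPP8 (the product of MPHOSPH8) and periphilin (the product of PPHLN1), acts with SETDB1 and MORC2 on integrated proviruses, retrotransposons and transgenes.

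All 10 are protein-coding genes in GENCODE 29 on GRCh38. The methylation genes are DNMT1 (ENSG00000130816) at chr19:10133345-10231286 on the minus strand, DNMT3A (ENSG00000119772) at chr2:25227855-25342590 on the minus strand, DNMT3B (ENSG00000088305) at chr20:32762385-32809356 on the plus strand and UHRF1 (ENSG00000276043) at chr19:4903080-4962154 on the plus strand. The corepressor pair is TRIM28 (ENSG00000130726) at chr19:58544091-58550722 on the plus strand and SETDB1 (ENSG00000143379) at chr1:150926263-150964744 on the plus strand. The HUSH genes are TASOR (ENSG00000163946) at chr3:56620133-56683237 on the minus strand, MPHOSPH8 (ENSG00000196199) at chr13:19633681-19673459 on the plus strand and PPHLN1 (ENSG00000134283) at chr12:42238447-42459715 on the plus strand, with MORC2 (ENSG00000133422) at chr22:30925130-30968298 on the minus strand. Counts were summed over all exons of a gene, so no isoform can be told apart.

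Gene counts per library lay between 10334090 and 38093340, and the 3 Clone 15 libraries were the deepest. The share of read pairs that mapped to several places was 4.59% to 5.98% in Clone 15 and 10.4% to 14.0% in the other lines. Parental replicate 2 and Clone 15 replicate 2 stood apart from the other libraries of their groups, and no pair of libraries agreed within sampling noise. The line's known markers were present, with VIM at 506 to 586 CPM (counts scaled to the library total) over all libraries and KRT18 at 35.4 to 74.4 CPM. KRT18 was called higher than in Parental in both clones, at log2 fold changes of 0.27 in Clone 37 and 0.77 in Clone 15. KRT8 was called lower in Clone 37, at -0.34, and not called in Clone 15. Other markers of the line differed strongly between the groups. NEFM, a neurofilament gene, averaged 559 CPM in Parental, 2728 in Clone 15 and 137 in Clone 37, and NEFL 235, 716 and 60.7 CPM, and both were called in all 3 comparisons. Of 9 markers of other cell types, CD3E had 0 counts in all libraries, PTPRC had at most 1 and ALB at most 7. COL1A1 averaged 34.4 CPM in Parental, 72.7 in Clone 15 and 19.5 in Clone 37, called lower in Clone 37 than in both other lines and not called between Clone 15 and Parental. CDH1 was called lower in both clones, at log2 fold changes of -1.93 in Clone 37 and -1.68 in Clone 15, and EPCAM was called lower in Clone 37 than in Parental, at -1.61. The part of these genes in the results was not tested.

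The proximal upstream sequences of the 3 genes with the largest called changes from Parental in Clone 15 are shown because DNMT3A, DNMT3B and TASOR differed among themselves in CpG content, the substrate of the enzymes studied. They are 250 bases upstream of the most upstream RefSeq start on GRCh38.p14, 5′ to 3′ on the strand of the gene. Capitals mark CCAAT or GGGCGG on either strand (ATTGG and CCGCCC on the other strand), which do not overlap each other. DNMT3A lies at chr2:25342591-25342840 on the minus strand, DNMT3B at chr20:32779602-32779851 on the plus strand and TASOR at chr3:56683266-56683515 on the minus strand.

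DNMT3A: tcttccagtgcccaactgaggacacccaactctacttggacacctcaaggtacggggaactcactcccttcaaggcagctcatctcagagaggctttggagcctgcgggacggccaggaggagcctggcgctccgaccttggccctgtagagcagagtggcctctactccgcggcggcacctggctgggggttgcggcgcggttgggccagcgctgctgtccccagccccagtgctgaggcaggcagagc
DNMT3B: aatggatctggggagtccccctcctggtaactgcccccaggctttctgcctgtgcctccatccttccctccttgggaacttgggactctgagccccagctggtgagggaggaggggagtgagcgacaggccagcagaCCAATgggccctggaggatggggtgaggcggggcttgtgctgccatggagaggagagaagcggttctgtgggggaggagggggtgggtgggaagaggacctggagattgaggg
TASOR: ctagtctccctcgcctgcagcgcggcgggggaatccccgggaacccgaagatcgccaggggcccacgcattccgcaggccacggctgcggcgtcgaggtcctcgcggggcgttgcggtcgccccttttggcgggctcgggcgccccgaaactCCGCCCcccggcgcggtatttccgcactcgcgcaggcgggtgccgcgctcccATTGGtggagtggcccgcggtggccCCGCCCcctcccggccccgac

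The TASOR window held 37 CpG sites, with an observed to expected CpG ratio of 1.02. The DNMT3A window held 12 sites with a ratio of 0.446, and the DNMT3B window 3 sites with a ratio of 0.129. Over all 27305 promoters of the same length the median was 10 sites with a ratio of 0.554. The DNMT3B window lies inside the GENCODE span of the gene, in an intron of that annotation, so it need not be the start used in these cells.

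RefSeq promoters were found for 9 of the 10 genes, all but TRIM28. Of 7 motifs searched on both strands, CCAAT stood in 5 of these 9 windows (DNMT3B, UHRF1, TASOR, MPHOSPH8 and MORC2) and in 33.0% of all promoters. GGGCGG stood in 4 windows (UHRF1, TASOR, MPHOSPH8 and MORC2) and in 42.2% of all promoters. TTTCCCGC, an E2F site, was found for UHRF1 alone and in 1.42% of all promoters, and CCGGAAGT, an ETS site, for PPHLN1 alone and in 3.64%. TTTGGCGC (0.542% of all promoters), the NRF1 site (1.13%) and TGACGTCA (1.75%) stood in none of the 9. The windows of DNMT1, DNMT3A and SETDB1 held none of the 7 motifs. Like that of DNMT3B, the windows of DNMT1, UHRF1 and PPHLN1 lie inside the GENCODE spans of their genes. Of their 250 bases 182, 71 and 217 are exonic in that annotation, so they need not be the starts used in these cells.

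In all 3 lines every one of the 10 genes was expressed. Levels between genes are given as CPM per kilobase of merged exons. TRIM28 was highest in Parental at 113 ± 5.90 CPM per kb (SD, n = 3), followed by TASOR at 43.0 ± 0.757, DNMT1 at 40.5 ± 0.387 and UHRF1 at 25.2 ± 1.95. MORC2 (16.9), SETDB1 (14.5), MPHOSPH8 (10.9), DNMT3B (9.78), DNMT3A (7.97) and PPHLN1 (6.35) followed as mean CPM per kb, and no neighbours in this order overlapped in range. By this length DNMT3A was lowest in both clones, at 3.88 ± 0.253 CPM per kb in Clone 15 and 4.02 ± 0.0738 in Clone 37. DNMT1 stood above TASOR in both clones. SETDB1 and MPHOSPH8 overlapped in both clones, and MORC2 and DNMT3B overlapped in Clone 37, so these neighbours had no clear order. With the longest transcript as the length, the Parental order changed: TASOR and DNMT1 changed places, as did SETDB1 and MORC2, and PPHLN1 rose to the seventh place. DNMT3A was then lowest in Parental as well as in both clones. In the clones SETDB1 rose above MORC2 and DNMT3B.

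**Figure D1:**
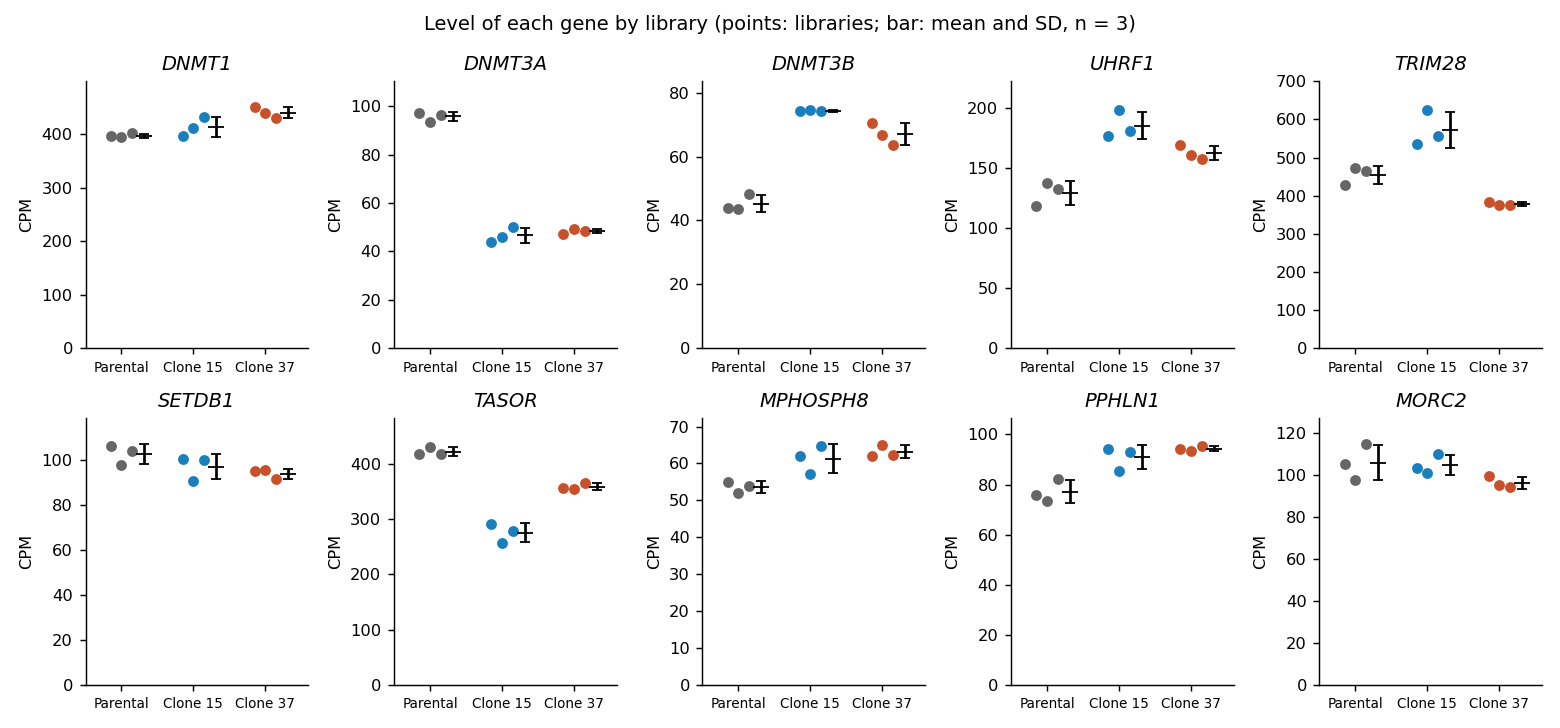
Level of each gene in CPM (vertical axes, from 0) in the 3 libraries of Parental, Clone 15 and Clone 37, with points for libraries and a bar for the mean and SD. The DNMT3A points of both clones sit at 43.9 to 49.9 CPM, below the Parental points at 93.6 to 97.2, while the TRIM28 points of Clone 15 lie above Parental and those of Clone 37 below.

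A gene was called when its Benjamini-Hochberg adjusted p from edgeR's quasi-likelihood test, over all genes tested, was under 0.05. In Clone 37 against Parental 9 of the 10 genes were called, 4 higher and 5 lower, where 54% of all 16501 genes tested were called. In Clone 15 against Parental 6 were called, 4 higher and 2 lower, where 51.4% of 17703 genes were called. Between the clones 4 were called, 1 higher and 3 lower in Clone 37, where 57.7% of 17712 genes were called. Among genes with a mean of at least 40 CPM, the range in which all 10 lie, the called shares were 65.8%, 61% and 69.3% in the same order. The counts of 6 and 4 are near or below these shares.

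The median log2 fold change of the 10 genes was -0.02 in Clone 37 against Parental, 0.10 in Clone 15 against Parental and 0.00 between the clones. Over all genes tested the medians were 0.02, 0.02 and -0.00. The median size of change, regardless of direction, was 0.26, 0.25 and 0.11 for the 10 genes and 0.32, 0.36 and 0.35 for all genes. Both clone comparisons use the same Parental libraries, so their values are given side by side. Without Parental replicate 2 all 10 genes were called in Clone 37. Without Parental replicate 1 the Clone 15 count was 4, and without both libraries that stood apart it was 7. Without Clone 15 replicate 2 the count between the clones was 6, and without any other single library it was 3.

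**Figure D2:**
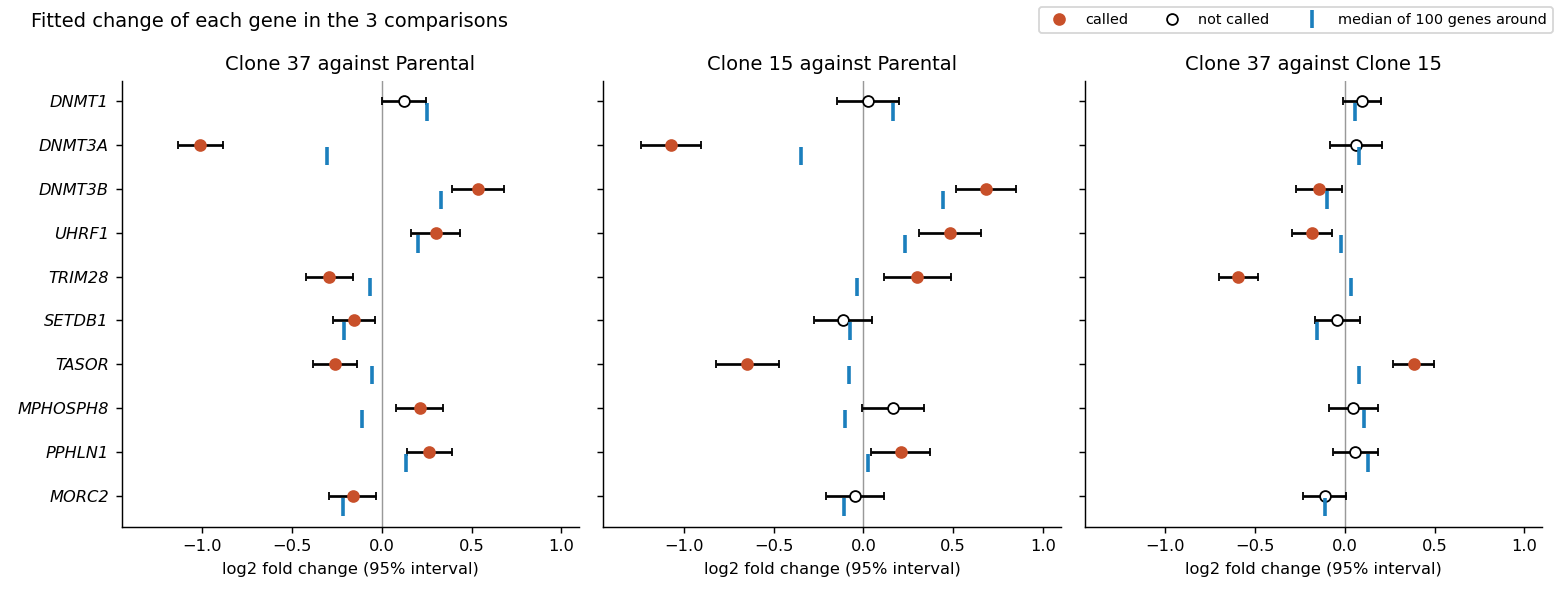
Fitted log2 fold change (horizontal axes) of each gene with its 95% interval in the 3 comparisons, filled where called, and a vertical tick at the median of the 100 chromosomal neighbours that were tested. DNMT3A lies at -1.01 and -1.07 against Parental, left of its neighbours' medians of -0.31 and -0.35.

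The maintenance methylation genes were DNMT1 and UHRF1, read as RNA levels only. DNMT1, which copies CpG methylation after replication, stood at 396, 394 and 401 CPM in Parental, 396, 411 and 432 CPM in Clone 15 and 451, 440.2 and 429.6 CPM in Clone 37. The Clone 37 libraries lay above all Parental libraries, while Clone 15 overlapped both. None of the DNMT1 differences passed the test, with a log2 fold change of 0.12 (SE 0.06, 95% interval 0.00 to 0.25, edgeR quasi-likelihood adjusted p = 0.0841) in Clone 37, 0.03 (SE 0.08, interval -0.15 to 0.20, adjusted p = 0.81) in Clone 15 and 0.10 (SE 0.05, interval -0.01 to 0.20, adjusted p = 0.112) between the clones. The 100 genes around DNMT1 on chromosome 19 had median changes of 0.25 and 0.17 from Parental. Without Parental replicate 2 the Clone 37 change was called at 0.11 (edgeR adjusted p = 0.0155). With GC content and length trends removed it was called at 0.21 (edgeR adjusted p = 0.0183), and Clone 37 against Clone 15 was called at 0.25 (edgeR adjusted p = 4.62e-06).

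UHRF1, the partner that recruits DNMT1, was higher in both clones. It stood at 118, 138 and 132 CPM in Parental, 177, 198 and 180.3 CPM in Clone 15 and 169, 161 and 158 CPM in Clone 37. No library of either clone overlapped Parental, and Clone 15 lay above Clone 37. The log2 fold change was 0.30 (SE 0.06, edgeR adjusted p = 0.000789) in Clone 37 and 0.48 (SE 0.08, edgeR adjusted p = 3.48e-05) in Clone 15. Clone 37 was lower than Clone 15 by a log2 fold change of -0.18 (SE 0.06, edgeR adjusted p = 0.0058).

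Relative to the 100 genes around it, whose median changes were 0.20 and 0.23, UHRF1 was no longer called in Clone 37, at 0.10 (edgeR adjusted p = 0.233), and kept its call in Clone 15, at 0.25 (edgeR adjusted p = 0.0191). With GC and length trends removed the difference between the clones shrank to -0.02 (edgeR adjusted p = 0.674). UHRF1 also shares 23.0% of its 75-base words and 20.7% of its 100-base words with AC112777.1, so unique counts of this gene are partial and can depend on read length. Both maintenance genes are linked to S phase, and the S phase list of 16 replication genes had 4 genes called higher and 4 lower for Clone 37, against 2 and 8 for Clone 15. That is 8 and 10 of 16 called, where 54% and 51.4% of all genes were. Between the clones 8 of the 16 were higher and 4 lower in Clone 37, where 57.7% of all genes were called. MCM5, a subunit of the replicative helicase, was at -0.96 in Clone 37, and CDT1, a licensing factor, was at -0.85 in Clone 15, as log2 fold changes. The part of S phase genes in the UHRF1 difference was not tested.

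The ratio of UHRF1 to DNMT1, on the CPM per kb scale, was 0.621 ± 0.0494 for Parental, 0.854 ± 0.0610 for Clone 15 and 0.703 ± 0.00973 for Clone 37 (SD, n = 3). The 3 groups did not overlap. Each of the 3 two-sided exact permutation tests gave p = 0.1, the smallest that 3 against 3 libraries allow, and 0.12 after adjustment over 12 such tests.

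The de novo enzymes DNMT3A and DNMT3B moved in opposite directions in both clones. DNMT3A was at 97.2, 93.6 and 96.5 CPM in Parental, 43.9, 46.1 and 49.9 CPM in Clone 15 and 47.4, 49.2 and 48.4 CPM in Clone 37. All 6 clone libraries were near the same level and far below Parental. The change was -50.4% in Clone 37 (log2 fold change -1.01, SE 0.06, edgeR adjusted p = 2.94e-10) and -52.4% in Clone 15 (log2 fold change -1.07, SE 0.08, edgeR adjusted p = 7.76e-11). Of all genes tested, 91.1% and 91.0% had smaller changes in these comparisons than DNMT3A. Fewer cells that express the gene and less RNA per cell cannot be told apart in bulk RNA.

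Between the clones DNMT3A differed by 0.06 (SE 0.07, 95% interval -0.08 to 0.20, edgeR adjusted p = 0.481), which did not pass the test. With GC and length trends removed this difference was called at 0.22 (edgeR adjusted p = 0.00264). The genes around DNMT3A on chromosome 2 were also lower, with medians of -0.31 in Clone 37 and -0.35 in Clone 15. Measured against them, DNMT3A was at -0.71 and -0.72 and still called in both. It was called lower than Parental in all 18 alternatives in Clone 37 and all 19 in Clone 15.

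DNMT3B, which methylates satellite repeats and many promoters in early development, stood at 43.9, 43.6 and 48.4 CPM in Parental, 74.2, 74.5 and 74.1 CPM in Clone 15 and 70.5, 66.9 and 63.6 CPM in Clone 37. Every clone library lay above every Parental library. The gene rose by 45.1% in Clone 37 (log2 fold change 0.54, SE 0.07, edgeR adjusted p = 4.18e-06) and by 60.5% in Clone 15 (log2 fold change 0.68, SE 0.08, edgeR adjusted p = 1.83e-07). Its chromosome 20 neighbours were higher too, with medians of 0.33 and 0.44. Against these neighbours DNMT3B stood at 0.21 in Clone 37 (edgeR adjusted p = 0.0214) and 0.24 in Clone 15 (edgeR adjusted p = 0.02).

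Clone 37 had less DNMT3B than Clone 15, at a log2 fold change of -0.15 (SE 0.06, edgeR adjusted p = 0.0465). That call held in 5 of 18 alternatives only, and was lost without any single library other than Clone 15 replicate 2 (edgeR adjusted p 0.0558 to 0.185). With GC and length trends removed the difference was 0.00 (edgeR adjusted p = 0.963).

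The ratio of DNMT3B to DNMT3A on the CPM per kb scale was 1.23 ± 0.0661 for Parental, 4.15 ± 0.268 for Clone 15 and 3.60 ± 0.235 for Clone 37 (SD, n = 3). In single libraries it was 1.17, 1.21 and 1.30 for Parental, 4.39, 4.19 and 3.86 for Clone 15 and 3.86, 3.53 and 3.41 for Clone 37. Neither clone overlapped Parental (two-sided exact permutation p = 0.1 each, the smallest possible, adjusted 0.12), whereas the clones overlapped each other (exact permutation p = 0.2, adjusted 0.218). DNMT3A made up 13.5% to 13.9% of the summed per-kb level of the 3 methyltransferases in Parental and 6.05% to 6.54% in the clones. The DNMT3B share was 16.4% to 17.6% in Parental, 24.9% to 26.6% in Clone 15 and 22.3% to 23.4% in Clone 37. The cofactor gene DNMT3L, which stimulates the de novo enzymes in germ cells, had 0 counts in all 9 libraries, below the 3 counts per library that a count of 0 allows.

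**Figure D3:**
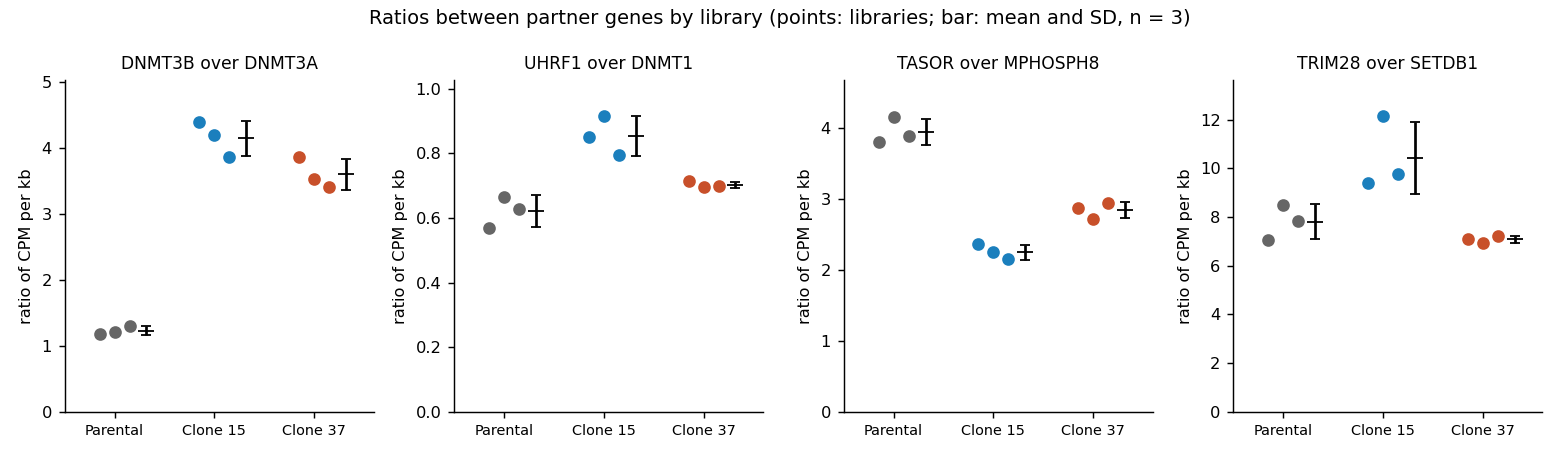
Ratios between partner genes on the CPM per kb scale (vertical axes, from 0) in the 3 libraries of each line, with points for libraries and a bar for the mean and SD. DNMT3B over DNMT3A is 1.17 to 1.30 in Parental and 3.41 to 4.39 in the clones, and TASOR over MPHOSPH8 is lower in both clones than in Parental.

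The corepressor TRIM28 was the one gene of the 10 called in opposite directions in the clones. Its levels were 427, 472 and 464 CPM in Parental, 536, 624 and 556 CPM in Clone 15 and 383, 375 and 375 CPM in Clone 37. The 3 groups did not overlap, with Clone 15 highest and Clone 37 lowest. The log2 fold change from Parental was -0.29 (SE 0.06, edgeR adjusted p = 0.000721) in Clone 37 and 0.30 (SE 0.09, edgeR adjusted p = 0.00758) in Clone 15. Between the clones the fitted change was -33.7% in Clone 37 (log2 fold change -0.59, SE 0.05, edgeR adjusted p = 2.24e-10).

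The TRIM28 difference between the clones was called in all 18 alternatives, as was the fall in Clone 37. The rise in Clone 15 was lost without Parental replicate 1, at 0.23 (edgeR adjusted p = 0.0856), and in unstranded counts, at 0.24 (edgeR adjusted p = 0.0663). Genes around TRIM28 on chromosome 19 had medians near 0, at -0.06 and -0.04 from Parental and 0.04 between the clones. At a GC content of 63.7% TRIM28 is the most GC-rich of the 10, and with GC and length trends removed its 3 changes were -0.30, 0.27 and -0.56.

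SETDB1, the methyltransferase that TRIM28 recruits, varied little. It was at 106, 97.6 and 104 CPM in Parental, 100.1, 90.4 and 99.9 CPM in Clone 15 and 94.8, 95.2 and 91.2 CPM in Clone 37. Clone 37 lay below Parental in all libraries, and Clone 15 overlapped both. SETDB1 was called lower in Clone 37 at -0.15 (SE 0.06, edgeR adjusted p = 0.0274) and did not pass the test in Clone 15, at -0.11 (SE 0.08, 95% interval -0.27 to 0.05, edgeR adjusted p = 0.244). Between the clones it was at -0.04 (SE 0.06, 95% interval -0.17 to 0.08, edgeR adjusted p = 0.565).

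The Clone 37 call of SETDB1 held in 6 of 18 alternatives, and was lost without Parental replicate 1 or any 1 of the Clone 37 libraries (edgeR adjusted p 0.069 to 0.09). Against the 100 genes around it SETDB1 was at 0.05 in Clone 37 (edgeR adjusted p = 0.478). Without Clone 15 replicate 2 the difference between the clones was called at -0.12 (edgeR adjusted p = 0.0407). SETDB1 overlaps CERS2 on the opposite strand over 948 exonic bases.

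TRIM28 over SETDB1, as a ratio of CPM per kb, was 7.80 ± 0.714 for Parental, 10.4 ± 1.48 for Clone 15 and 7.08 ± 0.153 for Clone 37 (SD, n = 3). Clone 15 lay above both other lines in every library (two-sided exact permutation p = 0.1 each, adjusted 0.12), and Clone 37 overlapped Parental (exact permutation p = 0.3, adjusted 0.3).

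Among the HUSH genes, TASOR fell in both clones while MPHOSPH8 and PPHLN1 were higher or did not pass the test. TASOR, the scaffold of the complex, was at 419, 431 and 419 CPM in Parental, 292, 257 and 279 CPM in Clone 15 and 356, 355 and 367 CPM in Clone 37. The 3 groups did not overlap, and Clone 37 lay between the other lines. The log2 fold change was -0.65 in Clone 15 (SE 0.09, edgeR adjusted p = 7.79e-07), a change of -36.1%, and -0.26 in Clone 37 (SE 0.06, edgeR adjusted p = 0.00114), a change of -16.6%. Clone 37 exceeded Clone 15 by 0.38 (SE 0.06, edgeR adjusted p = 1.34e-06).

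TASOR has the lowest GC content of the 10 genes, at 36.0%. With GC and length trends removed its changes were -0.29 in Clone 15 (edgeR adjusted p = 0.00474), -0.14 in Clone 37 (edgeR adjusted p = 0.0903, no longer called) and 0.15 between the clones (edgeR adjusted p = 0.00259). Medians of the 100 genes around it on chromosome 3 were -0.05 and -0.08, and against them TASOR was at -0.21 in Clone 37 and -0.57 in Clone 15.

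MPHOSPH8, whose product reads methylated lysine 9 of histone H3, stood at 55.0, 51.9 and 53.9 CPM in Parental, 61.9, 57.3 and 64.8 CPM in Clone 15 and 62.0, 65.1 and 62.3 CPM in Clone 37. Every clone library lay above every Parental library, and the clones overlapped each other. MPHOSPH8 was called higher in Clone 37 at 0.21 (SE 0.06, edgeR adjusted p = 0.00891). In Clone 15 it was at 0.17 (SE 0.08, 95% interval -0.01 to 0.34, edgeR adjusted p = 0.106) and between the clones at 0.05 (SE 0.07, 95% interval -0.09 to 0.18, edgeR adjusted p = 0.58), neither of which passed.

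The MPHOSPH8 call in Clone 37 held in 14 of 18 alternatives. It was lost without Clone 37 replicate 3 (edgeR adjusted p = 0.0656) or Parental replicate 3 (edgeR adjusted p = 0.0748), without a filter on low counts and in unstranded counts. In Clone 15 the gene was called in 7 of 19 alternatives, among them the fit without Clone 15 replicate 2, at 0.24 (edgeR adjusted p = 0.0167). The genes around MPHOSPH8 on chromosome 13 were lower in both clones, with medians of -0.11 and -0.10. Measured against them MPHOSPH8 was called in both, at 0.32 in Clone 37 and 0.27 in Clone 15.

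PPHLN1, the RNA-binding subunit of HUSH, was at 76.0, 73.2 and 82.4 CPM in Parental, 94.3, 85.3 and 93.2 CPM in Clone 15 and 94.0, 93.6 and 95.4 CPM in Clone 37. No clone library overlapped Parental. PPHLN1 was called higher at 0.26 in Clone 37 (SE 0.06, edgeR adjusted p = 0.00114) and 0.21 in Clone 15 (SE 0.08, edgeR adjusted p = 0.0333), with no call between the clones at 0.06 (SE 0.06, 95% interval -0.07 to 0.18, edgeR adjusted p = 0.44). The Clone 15 call held in 12 of 19 alternatives and was lost without Clone 15 replicate 1 or 3 or Parental replicate 1 or 3 (edgeR adjusted p 0.0616 to 0.168). Against the 100 genes around it, neither call held (0.13, edgeR adjusted p = 0.0891, in Clone 37 and 0.18, edgeR adjusted p = 0.0684, in Clone 15). With GC and length trends removed the changes were 0.38 and 0.42.

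The ratio of TASOR to MPHOSPH8 on the CPM per kb scale was 3.94 ± 0.182 for Parental, 2.25 ± 0.105 for Clone 15 and 2.84 ± 0.113 for Clone 37 (SD, n = 3). The 3 groups did not overlap, and each two-sided exact permutation test gave p = 0.1 (adjusted 0.12).

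MORC2, a chromatin-compacting ATPase recruited by HUSH, was at 105, 98.0 and 115 CPM in Parental, 103, 101 and 110.1 CPM in Clone 15 and 99.6, 95.1 and 94.6 CPM in Clone 37. Parental overlapped both clones, and Clone 37 lay below Clone 15. The fit called MORC2 lower in Clone 37 at -0.16 (SE 0.06, edgeR adjusted p = 0.0348), but 12 of 18 alternatives did not, including each fit without 1 Clone 37 library or without Parental replicate 1 or 3 (edgeR adjusted p 0.0534 to 0.127). It was at -0.05 in Clone 15 (SE 0.08, 95% interval -0.21 to 0.12, edgeR adjusted p = 0.646) and -0.11 between the clones (SE 0.06, 95% interval -0.24 to 0.01, edgeR adjusted p = 0.101). Without Clone 15 replicate 2 the difference between the clones was called at -0.17 (edgeR adjusted p = 0.00439). Exons of MORC2 share 1616 bases with MORC2-AS1 on the opposite strand.

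**Figure D4:**
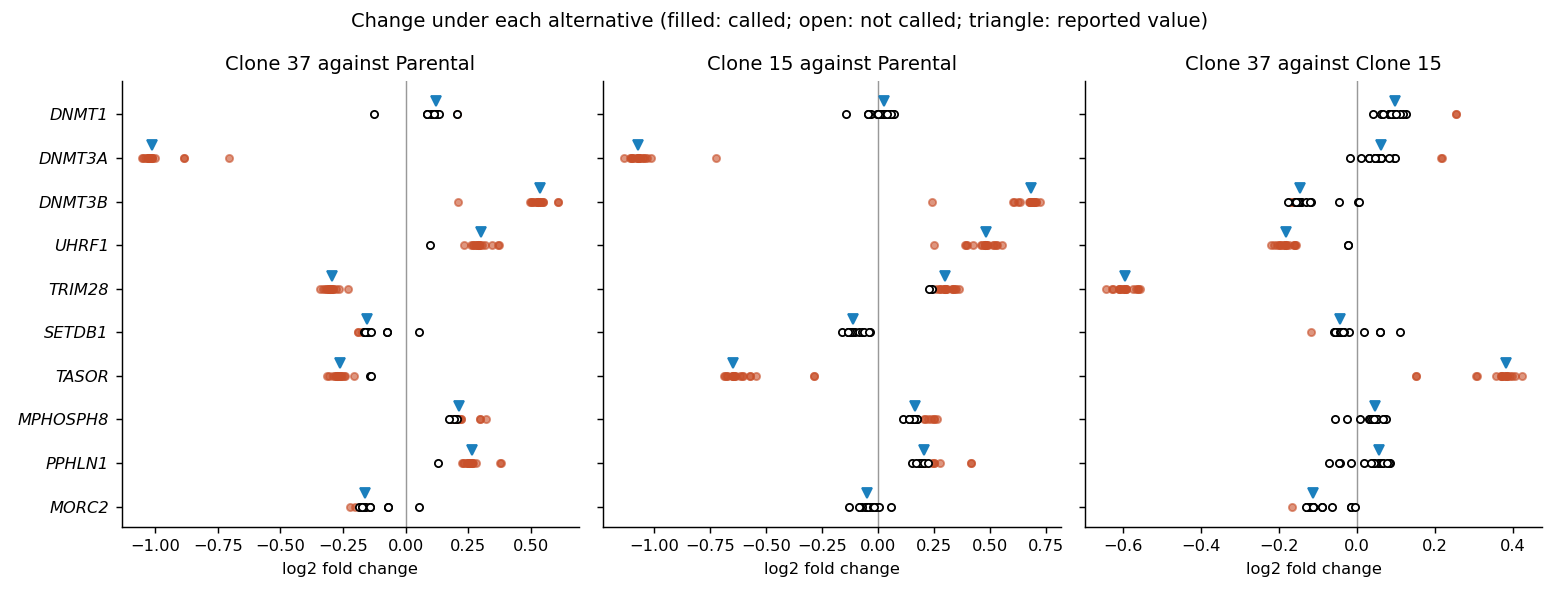
Log2 fold change (horizontal axes, which differ in range) of each gene under every alternative processing, filled where called and open where not, with the reported value as a triangle. DNMT3A against Parental is filled under all alternatives, whereas SETDB1 and MORC2 in Clone 37 are filled in 6 of 18 each.

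The gene whose profile changed most was DNMT3A, and the 3 protein-coding genes with the nearest profiles were sought among 11309 with a mean of at least 5 CPM. Distance was Euclidean, over log2(CPM + 1) values of the 9 libraries centred on their mean. ADCY1, an adenylate cyclase gene on chromosome 7, was nearest at 0.239, with 85.4 CPM in Parental, 40.5 in Clone 15 and 40.8 in Clone 37. EPHA3, an ephrin receptor gene on chromosome 3, followed at 0.279, with 46.7, 25.1 and 23.2 CPM in the same order. KDM3A, which encodes a demethylase of lysine 9 of histone H3, was at 0.288, with 106, 56.9 and 53.8 CPM.

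Further genes of the same pathways were counted by list. Of 14 tested DNA methylation partners and readers, 6 rose and 6 fell for Clone 37, against 4 and 4 for Clone 15, with median log2 fold changes of 0.08 and -0.04. ZBTB38, a zinc finger reader of methylated DNA, was at -1.53 (SE 0.08, edgeR adjusted p = 4.21e-11) in Clone 37. CDCA7, a cofactor of the remodeller HELLS, was at -0.50 (SE 0.05, edgeR adjusted p = 6.03e-07) in Clone 37 and -1.11 (SE 0.08, edgeR adjusted p = 1.94e-11) in Clone 15. The 100 genes around CDCA7 had medians of -0.47 and -0.63 in the same order, and those around ZBTB38 -0.44 in Clone 37. MBD3 rose by 0.60 (SE 0.09, edgeR adjusted p = 4.79e-06) in Clone 15, where the genes around it had a median of 0.16. Between the clones 6 were called higher and 7 lower in Clone 37. ZBTB38 was at -1.29 (SE 0.08, edgeR adjusted p = 8.18e-14) there, where the genes around it had a median of -0.43. USP7, a deubiquitinase that binds DNMT1 and UHRF1, was at 0.68 (SE 0.05, edgeR adjusted p = 1.22e-11) between the clones, with a median of 0.44 around it.

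Among 6 DNA demethylation genes, 1 was higher and 4 were lower in each clone against Parental. GADD45A was lowest, at -0.97 in Clone 37 and -1.13 in Clone 15. TET3, a 5-methylcytosine oxidase, was at -0.52 in Clone 37, and TDG, the glycosylase that removes its products, was at 0.49 in Clone 15. The 100 genes around GADD45A had medians of -0.25 in Clone 37 and -0.35 in Clone 15. Those around TET3 had a median of -0.34 in Clone 37, and those around TDG 0.06 in Clone 15. The list median was -0.29 in Clone 37 and -0.40 in Clone 15, and between the clones it was -0.01 with 2 called higher and 3 lower.

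Of 13 tested HUSH and SETDB1 partners, 6 were higher and 3 lower for Clone 37, against 4 and 4 for Clone 15. Between the clones 6 were higher and 2 lower in Clone 37. MORC4 fell by 1.02 in Clone 37 and by 0.53 in Clone 15, where ATRX, a remodeller that deposits histone H3.3 with DAXX, fell by 0.48. ATF7IP2, a relative of the SETDB1 partner ATF7IP, was at 0.67 in Clone 37. MORC3 was 0.49 higher in Clone 37 than in Clone 15. MORC1 had 1 count in 1 Clone 15 library and 0 in the other libraries. The list medians were 0.15, -0.12 and 0.03 in the 3 comparisons, Clone 37 first and the difference between the clones last.

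Of 11 H3K9 methyltransferase and HP1 genes, 3 were higher and 2 lower for Clone 37, against 5 and 4 for Clone 15. CBX5, which encodes the HP1 alpha protein that binds methylated lysine 9, fell by 0.93 in Clone 15 (SE 0.09, edgeR adjusted p = 4.76e-09). It was 1.08 higher in Clone 37 than in Clone 15 (SE 0.05, edgeR adjusted p = 2.01e-16), and in Clone 37 against Parental it did not pass the test, at 0.15 (edgeR adjusted p = 0.0671). The 100 genes around CBX5 had medians of 0.32 in Clone 15 and 0.05 in Clone 37 against Parental. Of 10 H3K9 demethylases, 2 were higher and 4 lower for Clone 37, against 3 and 2 for Clone 15, and 5 were lower and 0 higher between the clones. KDM7A was at -1.31 in Clone 37 and -0.91 in Clone 15, where KDM3A was at -0.93.

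In 13 NuRD and histone deacetylase genes, 4 were higher and 7 lower in Clone 37, with MTA1 and MTA3 both at -0.56, and 2 higher and 2 lower in Clone 15, with MTA2 at 0.64. The 100 genes around MTA1 and MTA3 had medians of -0.38 and -0.39 in Clone 37, and those around MTA2 0.48 in Clone 15. Of 8 Polycomb repressive complex 2 genes, 1 was higher and 4 lower in Clone 37, with EZH2, the catalytic subunit, at -0.80, and 0 were higher and 2 lower in Clone 15, with MTF2 at -0.59. The 100 genes around EZH2 had a median of -0.95 in Clone 37, a larger fall than that of EZH2. Those around MTF2 had a median of -0.43 in Clone 15. The shares of genes called higher and lower over all genes tested were 26.7% and 27.3% in Clone 37 and 25.1% and 26.2% in Clone 15. Between the clones these background shares were 28.7% and 29%.

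**Figure D5:**
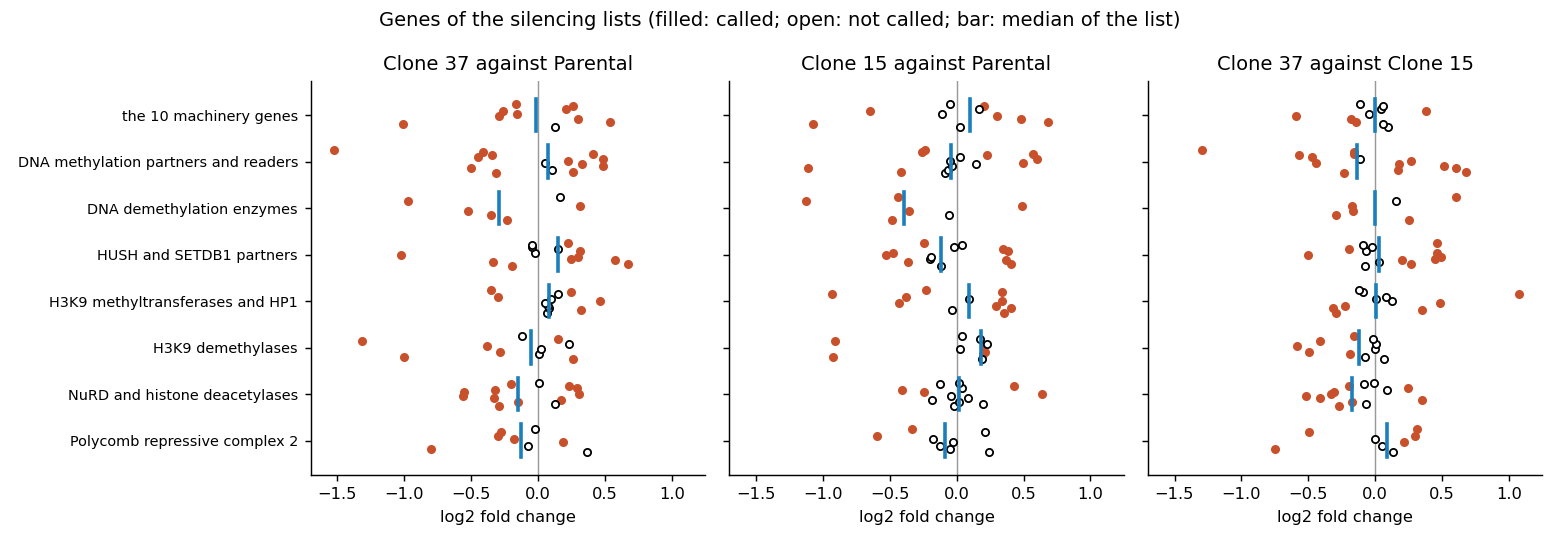
Log2 fold change (horizontal axes) of the genes in the 8 lists of silencing genes in the 3 comparisons, filled where called and open where not, with a bar at the median of each list. Most genes lie within 1 log2 unit of 0, and ZBTB38 at -1.53 and KDM7A at -1.31 lie farthest to the left in Clone 37.

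Germline genes that promoter methylation keeps silent in somatic cells made up a further list, given here without test results. Most of its 20 genes were near 0 in all libraries. MAGEA1, MAGEA6 and MAGEA12 passed the filter on low counts only through Parental, so they could be called in no direction but lower, and no tally of the list is given. MAGEA6 had 112, 190 and 169 counts in the Parental libraries, 1 count in each Clone 15 library and 0 counts in each Clone 37 library. MAGEA1 had 85, 112 and 85 counts in Parental and at most 1 in any clone library. MAGEA3 differed from these in Clone 37, where it kept 43, 40 and 50 counts. Its Parental libraries held 121, 201 and 169 counts, and its Clone 15 libraries 0, 3 and 1. SYCP3, a gene of the meiotic chromosome axis, was highest in Clone 15, with 14, 7 and 9 counts against 0, 0 and 1 in Parental and 1, 1 and 2 in Clone 37, and was too low to test. The Clone 15 libraries were the deepest, and scaled to library totals the SYCP3 means were 0.378 CPM in Clone 15, 0.0255 in Parental and 0.117 in Clone 37. The sequence that MAGEA genes share with each other was not measured here, so their unique counts are uncertain.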

How the data were processed

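Total RNA of 9 libraries in 3 groups was analysed from deposited raw counts per gene. Per the labels' protocols, libraries were rRNA-depleted and directional, made from 500 ng of RNA with 13 cycles of amplification. STAR 2.7.10a, FastQC 0.11.9 and hg38 are named in the submitters' processing notes. The annotation release, trimming and filters are not given in the sources used here. Counts of the transcript strand, which held 92.6% to 94.0% of stranded counts, were used. The summary entries, which name no gene, were left out of library sizes and tests (pairs without a feature were 19.2% to 34.6% of read pairs). Reads that map to several places are not in such counts.

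Each comparison was fitted on its 6 libraries with edgeR 4.0.16 (filterByExpr, TMM, glmQLFit with robust estimation, glmQLFTest) in R 4.3.3, checked on simulated counts. Standard errors come from the log2 fold change and the square root of its F statistic. CPM values use the total of gene counts. GENCODE 29 on GRCh38 gave positions, exon lengths and GC content, and RefSeq the promoters. Exact permutation tests, two-sided, were used for ratios (Python 3.11.15). DESeq2 1.42.0 and 11 other settings, and fits without each library, were alternatives, and 1 fit without 2 libraries that stood apart was added after seeing the data. In the neighbour setting, the median change of 100 tested genes around a gene was subtracted. In another, per-library trends of log counts over GC content and transcript length were removed.

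The 10 genes and all lists were chosen with earlier results of these data known. All 10 are named in each comparison, together with the 3 genes with profiles nearest to that of DNMT3A. From each further list up to 2 called genes of largest change are named, though not in every comparison. DNMT3L, MORC1, MAGEA3, SYCP3 and the cell markers named were picked after their values were seen.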

Additional observations from a re-analysis of the deposited data

Results flagged for a closer look

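For 4 of the 10 genes the change from Parental differed between the clones, by edgeR's quasi-likelihood test of Clone 37 against Clone 15 with Benjamini-Hochberg adjustment. TRIM28 differed most, at a log2 fold change of -0.59 (adjusted p = 2.24e-10), and its 2 changes from Parental had opposite directions. TASOR differed by 0.38 (adjusted p = 1.34e-06), UHRF1 by -0.18 (adjusted p = 0.0058) and DNMT3B by -0.15 (adjusted p = 0.0465). TRIM28 and TASOR kept these calls in all 18 alternatives, but with GC and length trends removed the TASOR difference was 0.15 (adjusted p = 0.00259). UHRF1 lost its call in that setting, at -0.02 (adjusted p = 0.674). DNMT3B was called in 5 of 18 alternatives, and without any single library other than Clone 15 replicate 2 only 3 of the 10 genes were called. Over all genes tested 57.7% were called in the same comparison, and the 100 bp reads of Clone 15 cannot be told apart from the clone.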

How the results depend on the processing

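Of the results with 10 genes in 3 comparisons, 460 values under an alternative kept direction and side of the threshold, 52 lost a call, 15 gained one and 23 changed sign. Measured against the 100 genes around, 5 members were called in Clone 37 against Parental in place of 9, since the neighbours' shift was subtracted. All other counts of members and genes stayed within 1.5 times the reported ones, and without single libraries the members called ranged from 6 to 10 in Clone 37, 4 to 7 in Clone 15 and 3 to 6 between the clones.

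The changes that reversed were of genes that had not been called, except DNMT3B between the clones and SETDB1 and MORC2 in Clone 37. Against the 100 genes around, DNMT1 was at -0.127 in Clone 37 and -0.140 in Clone 15, MORC2 at 0.052 and 0.0604, and SETDB1 at 0.0529 in Clone 37. Between the clones this setting gave DNMT3A -0.0173, MPHOSPH8 -0.0576, PPHLN1 -0.0719 and SETDB1 0.11. With GC and length trends removed, without and with the replicate block, DNMT1 was at -0.0452 and -0.0453 in Clone 15, and between the clones DNMT3B was at 0.0032 and 0.0054, PPHLN1 at -0.0448 and -0.0452 and SETDB1 at 0.0578 and 0.0600. Unstranded counts gave DNMT1 -0.0308 in Clone 15 and SETDB1 0.0180 between the clones. Without single libraries the Clone 15 changes ranged from -0.0023 (without Parental replicate 1) to 0.0726 for DNMT1 and from -0.0817 to 0.0057 (without Clone 15 replicate 2) for MORC2. Between the clones they ranged from -0.0269 to 0.0738 for MPHOSPH8 and from -0.0150 to 0.0814 for PPHLN1, both lowest without Clone 15 replicate 2. The cause of these reversals was not tested.

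Libraries with the same replicate number did not deviate together (r of -0.172 to -0.0564 for Clone 37 and Parental). For Clone 15 and Parental r was -0.0117 to 0.00247, and between the clones -0.0238 to 0.0287. With 3 libraries per group such values cannot show whether the numbers pair the libraries, and the reported fits used no pairing. The replicate block gave 7, 6 and 4 members called, and 8375, 8708 and 10490 genes, in the 3 comparisons. The lowest count of any of the 10 genes in a library was 475.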
